A study of Onthophagus taurus with 15 samples.

Results

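In Onthophagus taurus, a dung beetle whose large males grow horns, 80 array clones had higher ratios in the legs of male pupae than in both the head horn and the thoracic horn. They were chosen from the 3182 clones with a value on all 15 arrays, of which they made up 2.51%, out of 3840 clones in the whole table. Head horn, thoracic horn and legs had 5 arrays each, lettered A to E, and every array set 1 of these appendages against dorsal abdominal epithelium dissected from those same animals. All 4 tissues came from large males of a laboratory colony taken within 24 h of pupation, with tissue of 4 pupae pooled per sample, so differences between single animals are not seen. Before labelling, RNA was amplified by in vitro transcription. The appendage carried Cy3 on 3 letters (A, C and E) and Cy5 on the other 2 (B and D). Horns and legs were never on the same array, and each was compared with the other only through the abdomen.

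The values are ratios of appendage to abdomen, taken as log2 because the base is not stated. Higher in the appendage is the likely meaning of a positive value, since titles and design name the appendage first, but the files do not settle it. If the direction were the other way round, every sign would turn and these clones would be the ones lower in legs. For each tissue, the mean of letters A, C and E was averaged with the mean of letters B and D, which gives both dye layouts equal weight. A clone was taken when each horn lay at least 0.8 (1.74-fold) below legs, with this sign in at least 4 of 5 same-letter pairs for each horn, and when the horns lay less than 0.8 apart. The differences between legs and horns chose the clones, so they are given here as a description and not tested. Of 85 clones past both gaps, 4 failed the limit on the horns and 1 failed the sign. The same rule with the signs turned, for clones higher in both horns than in legs, gave 73 clones.

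Beetle horns are unjointed outgrowths of the body wall, made of epidermis and the cuticle it secretes. Legs are jointed limbs that also hold muscle, tendon, nerve and sensory organs, and both kinds of outgrowth use parts of the same patterning system along the axis from base to tip. The thoracic horn of this species is a pupal structure that is resorbed before the adult emerges. The clones are known here only by plate and well, with the prefix OtL or OtP, since no clone ID (0 of 3840) matched any of the 16956 entries of the RefSeq gene table. No gene, role or sequence can therefore be given for a clone, and the tissue labels could not be checked against marker genes. Several clones can come from 1 transcript, so 80 clones need not be 80 genes. In pooled tissue, fewer cells of a type and less RNA per cell cannot be told apart.

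Each array carried 3511 to 3808 values, with array medians from -0.07 to 0.15. In each tissue letter D was the least complete, with 295 to 329 empty values against 32 to 120 on the other arrays, and the highest median, 0.15, was that of its leg array. The signal behind each ratio is unknown, and the number of arrays limits the precision.

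Measured against the abdomen, the 80 clones fell into 3 classes, set at a ratio of 0.4 (1.32-fold). In 41 clones the leg ratio was at least 0.4 and the mean of the horns stayed above -0.4, and these are called raised in legs. In 21 clones the horn mean was -0.4 or less and legs stayed below 0.4, and these are called lowered in horns. The other 18 clones met both conditions, with legs at 0.4 or more and horns at -0.4 or less. The class raised in legs had leg ratios from 0.58 to 4.11 (median 1.49) and horn means from -0.39 to 3.18 (median 0.05). Lowered clones had legs between -0.42 and 0.39 (median 0.12) and horn means between -1.49 and -0.58 (median -0.95). The 18 clones of both kinds had legs between 0.42 and 4.04 (median 0.59) and horn means between -0.92 and -0.41 (median -0.53).

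**Figure D1:**
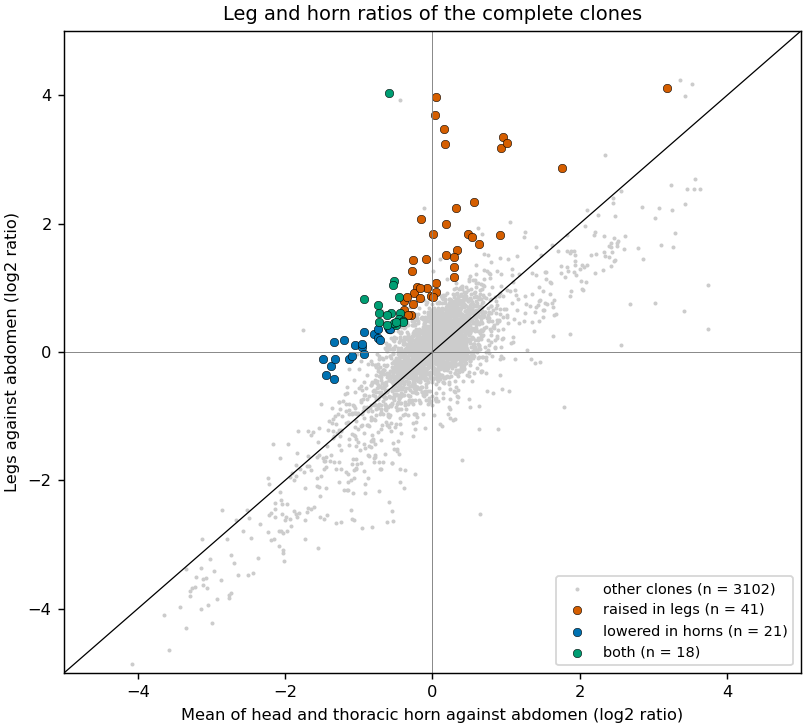
Each point is a clone with 15 values, placed by the mean of its head and thoracic horn ratios (horizontal axis, log2) and its leg ratio (vertical axis, log2), both against abdomen and averaged over the dye layouts. The 80 chosen clones, coloured by class, lie above the line of equal ratios, 41 of them raised in legs, 21 lowered in horns and 18 both, and the grey points are the other 3102 clones.

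Over all 80 clones the median gap between legs and the mean of the horns was 1.16, or 2.24-fold. The smaller of the 2 gaps of a clone, to head horn or to thoracic horn, reached 2-fold in 44 clones, 4-fold in 8 and 8-fold in 4. Among the 20 complete clones with the highest leg ratio against abdomen, 10 belonged to this set, and among the highest 100 there were 24. Head horn lay below thoracic horn in 42 of the 80 clones. Between legs and horns the gap was above 0 on every letter, for both horns, in 64 of the 80 clones. The rule already asked for this sign on 4 of 5 letters, and the share over all clones was not counted. In 25 clones (31.2%) every leg array lay above every horn array, where 2.36% of all 3182 complete clones showed this. Separation from the head horn arrays alone was seen in 32 clones (background 3.55%) and from the thoracic horn arrays alone in 41 (background 5.5%). These shares follow from the choice of the clones and are printed only to show how far the arrays of single clones separate.

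**Figure D2:**
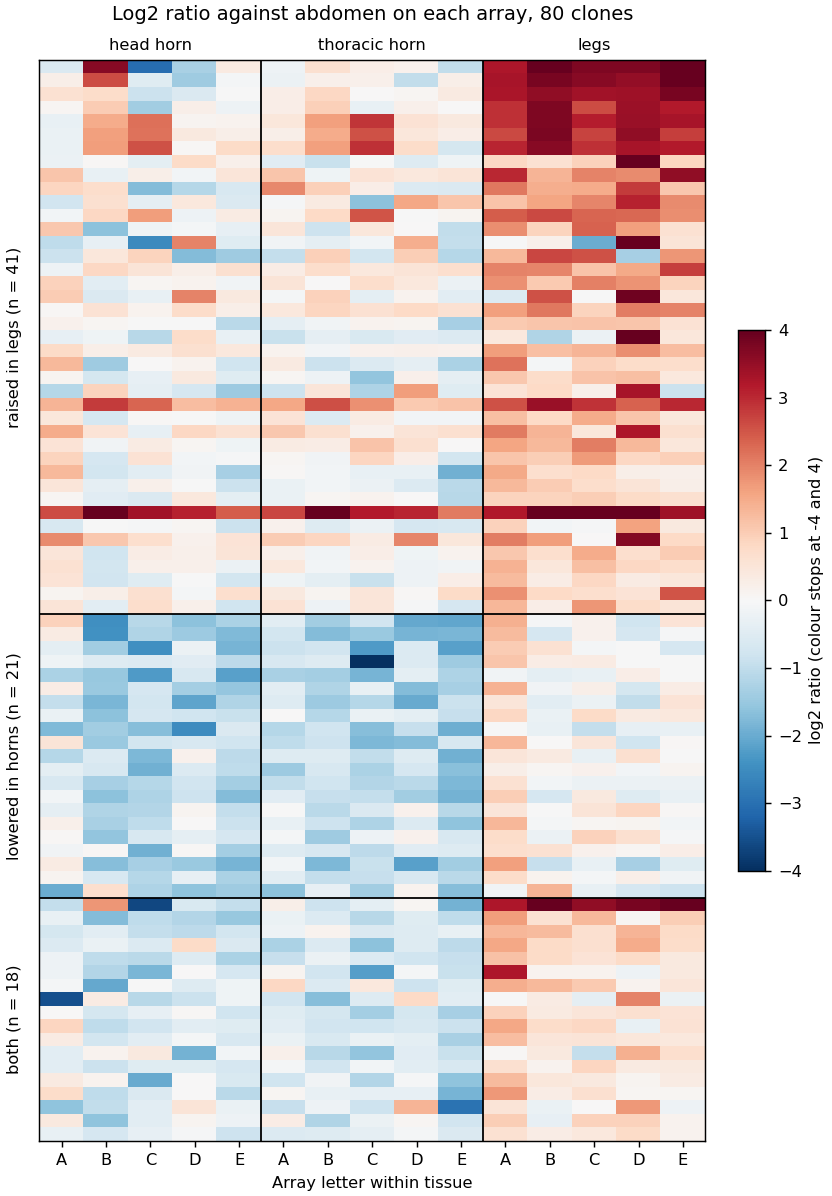
Rows are the 80 clones, grouped into the classes raised in legs (n = 41), lowered in horns (n = 21) and both (n = 18), and ordered within a class by the gap between legs and the mean of the horns. Columns are the 15 arrays by tissue and letter, and colour is the log2 ratio against abdomen, with the scale ending at -4 and 4; the strongest leg rows are dark red on every letter, while a few rows are dark red on leg array D alone.

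The clone with the widest gap was OtP013-D04, in the class of both kinds. In legs its ratios on letters A to E were 3.25, 4.76, 3.55, 3.81 and 4.57. In head horn they were -0.95, 1.77, -3.65, -0.62 and -0.96, and in thoracic horn 0.23, -0.84, -0.38, 0.09 and -1.89. Every leg array was therefore above every horn array, while the head horn arrays alone spread over a wider range than the legs did, with B high and C low. The leg mean was 3.99 ± 0.65 (SD, n = 5), the head horn mean -0.88 ± 1.92 and the thoracic horn mean -0.56 ± 0.86. Averaged over the dye layouts, legs lay 24.6-fold above the horns.

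OtP014-A08, raised in legs, had the same uneven head horn. Its leg ratios were 3.22, 4.51, 3.73, 3.73 and 4.50 on letters A to E, and its head horn ratios -0.56, 3.65, -3.04, -1.31 and 0.36. Head horn B thus overlapped the legs, although it stayed below leg array B. Thoracic horn was steadier, at -0.19, 0.65, 0.26, 0.17 and -1.0, and the leg mean exceeded the mean of the horns by 3.92 (15.1-fold). OtP005-A01 followed, with legs from 3.31 to 4.17, thoracic horn from -0.99 to 0.24 and head horn at 0.23, 2.61, -0.50, -1.43 and -0.09. Head horn B was again the highest horn array, here below all leg arrays. Residuals of these 3 clones, after tissue and dye layout were removed, correlated with each other at 0.57 to 0.86 over the 15 arrays they share.

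OtP001-H02 and OtL014-A09 were raised in legs with a wide gap on every letter. The leg ratios of OtP001-H02 were 3.27, 3.55, 3.35, 3.38 and 3.78, and its horn arrays ran from -0.86 to 0.73 in head horn and from 0.02 to 0.82 in thoracic horn. Its leg mean of 3.47 ± 0.20 (SD, n = 5) stood 9.90-fold above the horns. OtL014-A09 had leg ratios of 2.91, 3.73, 2.62, 3.43 and 3.17, against -1.38 to 1.03 in head horn and -0.30 to 0.97 in thoracic horn. In both clones the lowest leg array was well clear of the highest horn array. Their same-letter gaps ran from 2.78 to 3.78 in OtP001-H02 and from 2.73 to 3.47 in OtL014-A09, and both clones stayed in the set when any 1 letter was left out.

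A quartet of clones raised in legs was also raised in both horns on letter C. OtP009-F09 had head horn ratios of -0.26, 1.64, 2.19, 0.39 and 0.24 on letters A to E and thoracic horn ratios of 0.23, 1.47, 2.53, 0.44 and 0.27. Its legs stood at 2.66, 3.77, 2.71, 3.54 and 2.78. The gap to the horn mean was therefore 0.35 on letter C and 2.22 to 3.13 on the others. OtP001-F11 showed the same shape, with head horn at -0.30, 1.47, 2.19, 0.09 and 0.14, thoracic horn at 0.44, 1.65, 2.87, 0.58 and 0.39, and legs between 2.93 and 3.75. In OtP007-A10 the gap on letter C was 0.20, with head horn at 2.54, thoracic horn at 2.93 and legs at 2.93, and on the other letters it was 2.0 to 3.12. OtP013-C02, named after its values were seen, had head horn at 1.68 and thoracic horn at 2.50 on letter C, while its legs lay between 1.87 and 2.66 on all letters. The 6 pairs among these 4 clones had residual correlations of 0.91 to 0.99, over arrays they share. The same 4 clones are a group among those linked further below by correlations above 0.9, so the high values are no separate result. Each clone sits on a different plate.

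**Figure D3:**
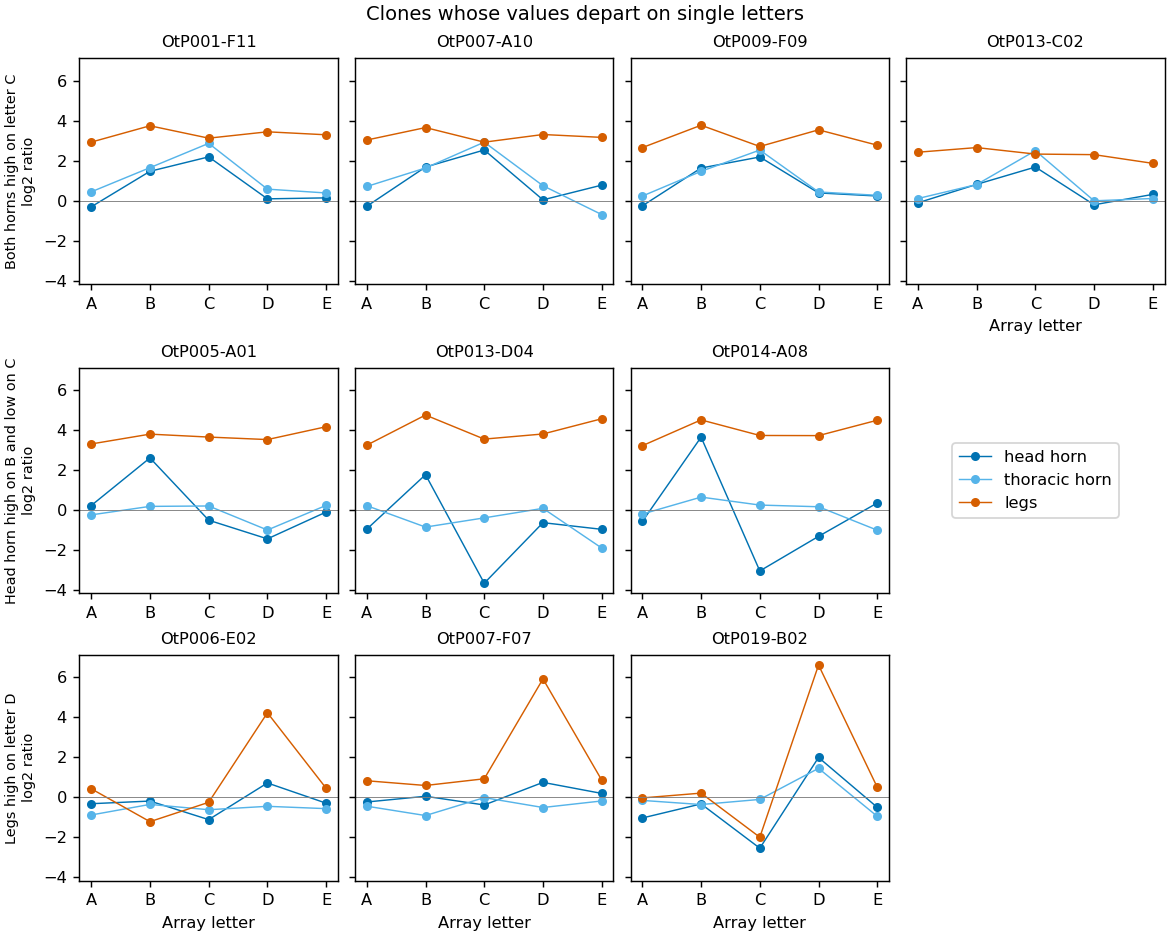
Log2 ratios against abdomen (vertical axis) by array letter (horizontal axis) in head horn, thoracic horn and legs, 1 panel per clone and 1 point per array. The upper row shows 4 clones in which both horns come near the legs on letter C, the middle row 3 clones with head horn high on B, and the lower row 3 clones whose leg ratio stands out on letter D.

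Some clones owed much of their gap to letter D. OtP007-F07 had leg ratios of 0.83, 0.60, 0.93, 5.92 and 0.87, and its horn arrays lay between -0.91 and 0.75. OtP019-B02 had leg ratios of -0.02, 0.22, -1.99, 6.62 and 0.51, and OtP006-E02 of 0.43, -1.21, -0.24, 4.23 and 0.46. Only leg array D separated these 3 clones widely from the horns. OtP007-F07 still had gaps of 0.85 to 1.17 on its other letters, and it met the rule on A, C and E alone. In 8 of the 80 clones (10%) leg array D lay more than 2 above the mean of the other leg arrays, against 1.35% of all complete clones. A high leg array D raises the leg mean that the rule used, so this share follows in part from the choice. Leaving out D lowered the plain mean gap by more than 1.5 times in 8 clones, named here after their values were seen. Any other single letter did so only in OtP017-E09. It went from 1.99 to 1.04 in OtP007-F07, from 1.31 to 0.42 in OtP019-B02 and from 1.13 to 0.40 in OtP006-E02. OtP018-E06 went from 0.75 to 0.29, OtP007-E06 from 0.89 to 0.46 and OtP017-E09 from 0.99 to 0.54. In OtP017-E09 it was also 0.65 without letter B and 1.49 without letter A. In OtP013-A12 it went from 0.93 to 0.53 and in OtL015-H12 from 1.11 to 0.69. Apart from OtP007-E06, which was in the class of both kinds, these clones were raised in legs. Letter D is also the least complete letter, and whether that has a part in these values was not tested.

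Not all clones raised in legs were near the abdominal level in the horns. In 10 of the 41 the horn mean was itself 0.4 or more. The highest was OtL012-B01, singled out after its values were seen, with legs at 3.21, 4.78, 4.23, 4.45 and 3.39, head horn from 2.43 to 4.43 and thoracic horn from 2.07 to 4.03. Its leg and horn arrays overlapped, and the order of legs over horns showed only within letters. The gap was 1.91-fold on top of a horn mean of 3.18, so this clone is high in all 3 appendages. OtP004-A01 marks the other end, with horns near the abdominal level and the steadiest gap of the set. Its legs were at 1.38, 0.46, 1.21, 0.82 and 0.70, and its same-letter gaps were 0.87, 0.87, 1.03, 0.81 and 0.88 (SD 0.08, n = 5).

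**Figure D4:**
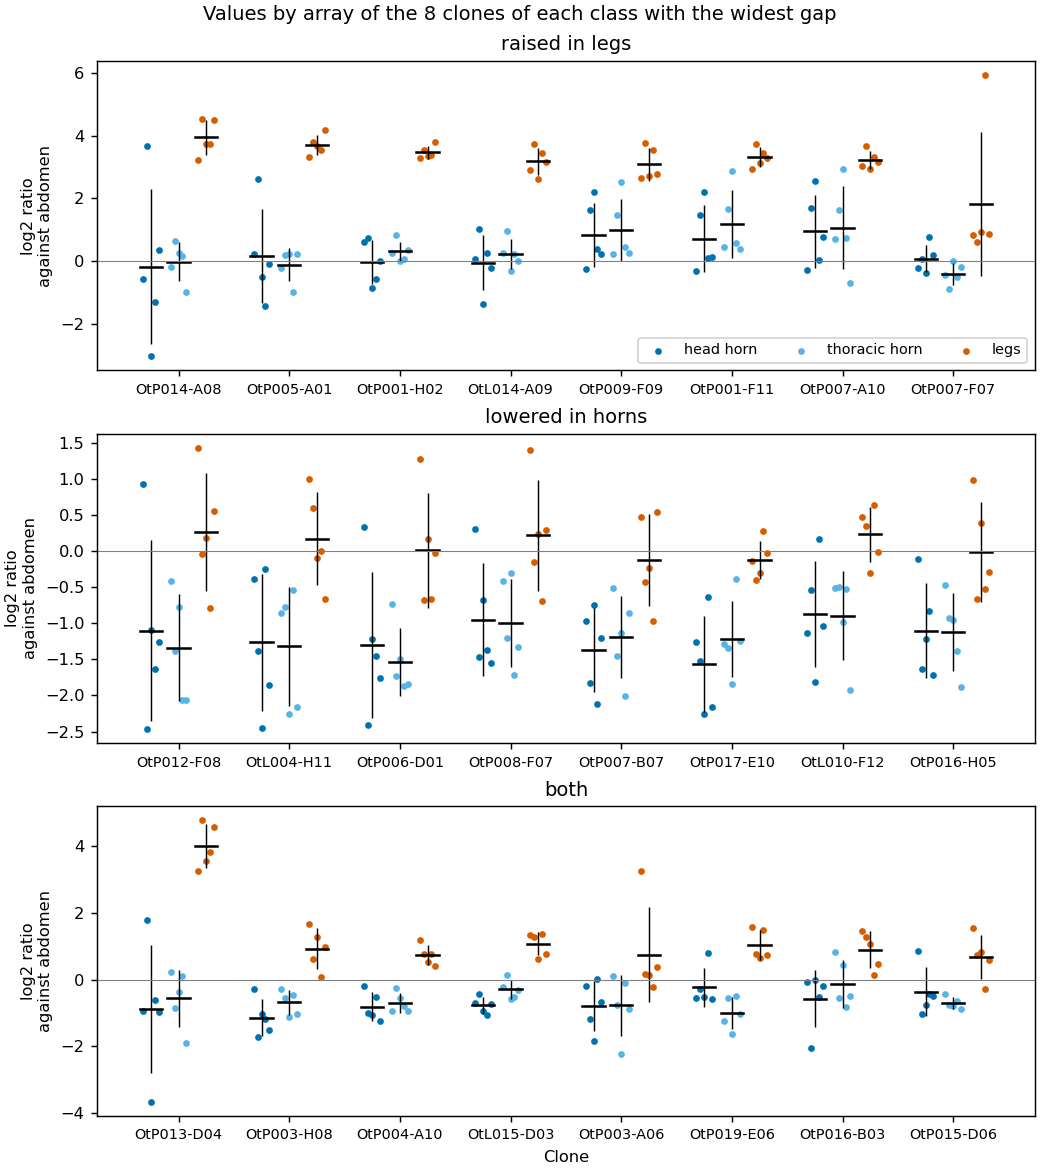
Log2 ratios against abdomen for the 8 clones of each class with the largest smaller gap, 1 point per array (5 per tissue, letters A to E from left to right), with the mean as a horizontal line and the SD as a vertical line. In the upper panel most leg points stand above 2.5 with horns around 0 to 1, in the middle panel legs lie around 0 with horns mostly below it, and in the lower panel legs and horns lie on either side of 0.

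Among the clones lowered in horns, OtP012-F08 had the widest gap. Its head horn ratios were 0.93, -2.47, -1.10, -1.63 and -1.26 on letters A to E, its thoracic horn ratios -0.41, -1.38, -0.77, -2.06 and -2.06, and its leg ratios 1.43, -0.04, 0.18, -0.79 and 0.56. Letter A was highest in all 3 tissues, so tissues overlapped across letters while the gap within letters stayed between 1.06 and 2.22. OtP006-D01 had the same feature, with letter A at 0.33 (head horn), -0.74 (thoracic horn) and 1.27 (legs), and gaps of 1.47, 1.39, 1.53, 0.99 and 1.76. OtP007-B07 was negative on all 10 horn arrays, lower on letters B and D than on the others, at -0.97, -1.83, -0.74, -2.12 and -1.20 in head horn and -0.51, -1.45, -1.13, -2.01 and -0.86 in thoracic horn. Its legs lay between -0.97 and 0.54, and its mean in legs was -0.12 ± 0.64 (SD, n = 5) against -1.37 ± 0.58 and -1.19 ± 0.57. OtP017-E10 had the least spread in legs of the 8 clones named in this class, from -0.40 to 0.27, with head horn from -2.26 to -0.64 and thoracic horn from -1.85 to -0.38.

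The remaining clones named in this class were alike in size. OtL004-H11 had a gap of 1.39, OtP008-F07 of 1.16, OtL010-F12 of 1.07 and OtP016-H05 of 1.01. In OtL004-H11 the gap on letter D was 0.39 and on the others 1.34 to 2.27. The largest gap in the class was 2.80-fold, against 15.1-fold among clones raised in legs. In 8 of the 21 lowered clones every horn array was negative. The class limit on the horn mean favours this, and the share over all clones was not counted. Every leg array lay above every horn array in 4 of the 21 (19%, background 2.36%), which follows from the choice. OtP007-C02, named after its values were seen, was the 1 clone of the class with legs also at -0.4 or less, at -0.42. Its leg arrays were at 1.64, -0.93, -0.30, -1.34 and -0.48, with letter A again the highest.

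Clones of the class of both kinds lay on either side of the abdomen. OtL015-D03 had leg ratios of 1.32, 1.28, 0.63, 1.37 and 0.75, head horn ratios of -0.70, -0.42, -0.95, -1.05 and -0.73, and thoracic horn ratios of -0.21, 0.14, -0.57, -0.53 and -0.31. Its arrays did not overlap between legs and horns, and the gap was 3.10-fold. In OtP003-H08, OtP004-A10 and OtP014-G05 all 5 leg arrays were positive and all 10 horn arrays negative. OtP003-H08 had legs from 0.07 to 1.66 and horns from -1.72 to -0.28, and OtP004-A10 legs from 0.40 to 1.18 and horns from -1.25 to -0.21. OtP014-G05 was closest to the abdomen, with legs from 0.14 to 0.77 and horns from -0.84 to -0.04.

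In other clones of this class a single array or letter stood apart. OtP003-A06 had a leg ratio of 3.25 on letter A and -0.21 to 0.38 on the others, and OtP016-B03 a head horn ratio of -2.05 on letter B and -0.53 to -0.01 on the others. The plain mean gap went from 1.52 to 1.07 in OtP003-A06 without letter A. In OtP016-B03 it went from 1.23 to 0.89 without letter B. OtP019-E06 was lower in thoracic horn (-1.63 to -0.50) than in head horn, where letter D stood at 0.78 and the others between -0.58 and -0.28. OtP015-D06 had a gap of 0.24 on letter D and 1.26 to 1.64 on the other letters.

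A linear model with 1 coefficient per tissue and a term for the dye layout was fitted to all 3777 testable clones with limma, and a clone is called at a Benjamini-Hochberg adjusted p under 0.05. These contrasts chose the clones, so the counts are descriptive. Head horn against legs was called with legs higher in 39 of the 80 clones (background 3.36%), thoracic horn against legs in 46 (background 5.67%), and both in 35 (background 2.28%). Both contrasts share the leg arrays. Neither was called in 30 clones, although these clones passed the rule on size and sign. With the letter as a replicate block the counts were 62 (background 10.2%), 69 (background 13.6%) and 62 (background 7.18%), and 11 clones had no call. With every array centred on its median, 36 of the 80 were called for head horn (background 2.83%) and 42 for thoracic horn (background 4.92%). Centring lowered the legs-higher share of all calls from 52.0% to 42.6% for head horn and from 51.6% to 45.0% for thoracic horn. Conversely, 86 clones were called with legs above both horns, of which 35 are in the set, 48 had a gap under 0.8, 2 had an empty value and 1 failed another condition.

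Against abdomen, 35 of the 41 clones raised in legs were called positive in legs (background 22.3%), 4 positive in head horn (background 18.2%) and 5 positive in thoracic horn (background 16.9%). Of the 21 lowered clones, 18 were called negative in head horn (background 18.9%) and 18 in thoracic horn (background 17.3%), and 0 in legs, positive (background 22.3%) or negative (background 17.6%). The class rests on these same ratios, so nothing is read from the counts. Among the 18 clones of both kinds, 11 were called positive in legs (background 22.3%). In head horn 5 were called negative (background 18.9%), and in thoracic horn 8 (background 17.3%). This class too rests on these ratios, and nothing is read from its counts.

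To measure the gap on arrays that had no part in the choice, the rule was applied to letters A, C and E alone and the result read on letters B and D. It chose 95 clones, and head horn lay below legs on both unused letters in 82 of them (86.3%, background 35%). Thoracic horn did so in 85 (89.5%, background 35.8%). The gap of 0.8 was met again in 49 clones for head horn (background 5%) and in 48 for thoracic horn (background 4.65%). The median difference from legs shrank from -1.13 to -0.82 in head horn and from -1.26 to -0.80 in thoracic horn. With 2 arrays per tissue, limma called 0 of the 95 clones in either contrast after adjustment (background 0%), and at an unadjusted p under 0.05 it gave 40 (background 4.74%) and 39 (background 4.58%).

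Turned round, the rule on letters B and D chose 74 clones, which were read on A, C and E. Head horn lay below legs on all 3 unused letters in 56 of them (75.7%, background 28.8%), and thoracic horn in 53 (71.6%, background 30.7%). The gap of 0.8 was met again in 42 clones (background 5.31%) and 49 clones (background 7.42%). After adjustment limma called 3 and 4 of the 74 (background 0.159% in each), and at an unadjusted p under 0.05 it gave 38 (background 7.64%) and 41 (background 9.78%). Both readings share the leg arrays between the horns, and the dye layout is constant within each reading. The clones chosen on 1 layout thus kept their sign on the other in most cases. These clones are not the same as the set described above. Those chosen on A, C and E include 59 clones of the set and 36 others, and those chosen on B and D include 49 and 25. The shares therefore describe the clones chosen on each layout, and not the set itself.

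**Figure D5:**
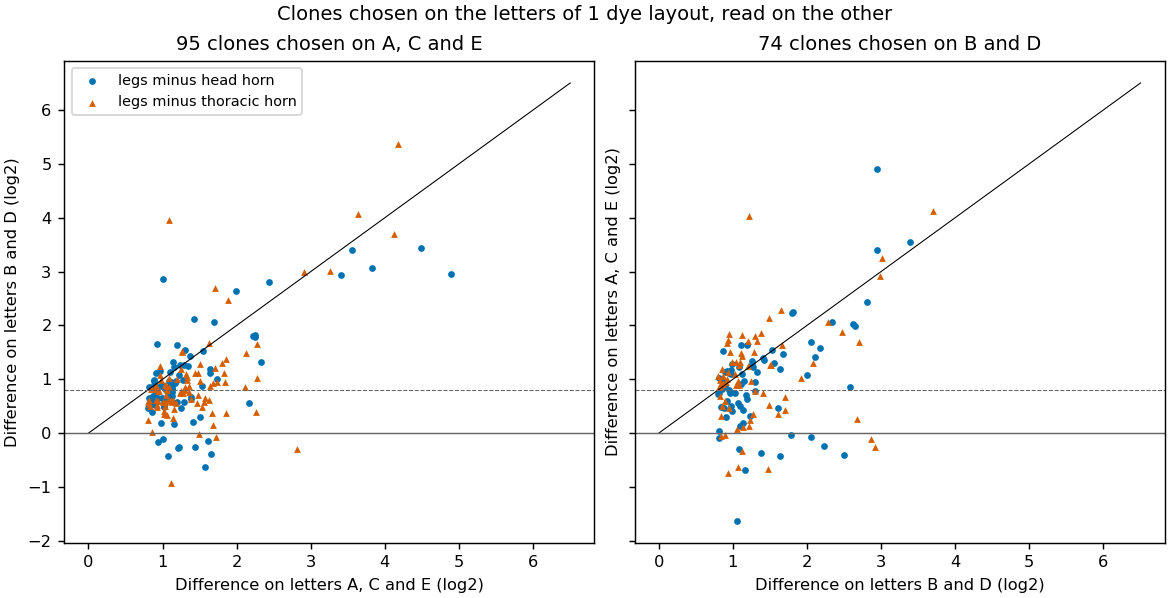
Each point is the difference legs minus head horn (circles) or legs minus thoracic horn (triangles) of a clone, on the letters that chose it (horizontal axis, log2) and on the letters that did not (vertical axis, log2). In the left panel 95 clones were chosen on A, C and E, in the right panel 74 on B and D; the solid diagonal marks equal differences, the dashed line 0.8. Most points lie above 0, and in the left panel most lie below the diagonal.

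The rule averaged over the dye layouts and compared tissues within letters, and it set no condition on a level shared by the 3 tissues of a layout or a letter. The layout term was called in 10 of the 80 clones, 4 positive and 6 negative, or 12.5% (background 22.6%). On leaving out a letter this count ran from 6 to 19. It was 19 without letter E, where 891 of all clones tested were called. The reason for the lower share was not tested. OtL015-H12 had the largest called layout term, at -1.71 (adjusted p = 0.0108, limma), and OtP007-B07 the most certain, at 0.95 (adjusted p = 0.00159, limma). With the letter as a replicate block 1 of the 80 was called (background 5.32%). The median gap of the 80 clones was 1.28 on the letters A, C and E, 1.04 on the letters B and D, and in 15 clones the log2 gap of 1 layout was more than 2 times that of the other. An F test of the letters, in a fit with tissue and letter, called 47 of the 80 clones (58.8%, background 52.3%), a share near the background. Within dye layouts the same test called 35 clones (43.8%, background 28.2%).

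By letter, the median gap between legs and the horn mean was 1.22 on A, 1.13 on B, 1.16 on C, 0.94 on D and 1.33 on E. Letter D held the smallest gap of 32 clones and the largest of 16. In the lowered class the median gap on D was 0.70, and in the class raised in legs it was 1.52. Averaged over the 3 tissues, 37 of the 80 clones (46.2%) were highest on letter A, against 21.6% of all complete clones. The median over the 80 clones of the deviation from the tissue means was 0.27 on letter A and -0.28 on letter E. Over all complete clones it was -0.02 and -0.00. Deviations shared by the 3 tissues of a letter cancel out of the same-letter gap, but the spread of a clone does not. The SD of the gap over letters had a median of 0.50 in the 80 clones and 0.26 in all complete clones. Whether the choice has a part in the share on letter A was not tested.

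Residuals of the fit with tissue and layout were correlated between clones, as a description over the 15 arrays that all clones share. The median over the 3160 pairs of the 80 clones was 0.16, against 0.01 over pairs of all complete clones. It was 0.45 among lowered clones, 0.28 in the class of both kinds and 0.06 among clones raised in legs. A correlation above 0.9 was seen in 41 pairs, or 1.30%, against 0.0556% of all pairs, and the 73 clones higher in the horns had 1.29%. Linking such pairs gave 8 groups with 34 clones, the largest with 13. All 13 were highest on letter A, by a median of 0.83 above their tissue means. Of the 13, 6 were lowered in horns, 4 were of both kinds and 3 raised in legs. OtP012-F08, OtP006-D01, OtL004-H11, OtP016-H05, OtP015-D06 and OtP004-A01 belong to this group. The other groups held 2 to 4 clones.

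Position in the libraries was read from the clone IDs. The prefix OtP was carried by 55 of the 80 clones (68.8%), against 46.2% of the complete clones, and OtL by 25. Among the 73 clones higher in both horns the OtP share was 37%. Of the clones raised in legs 30 were OtP and 11 OtL, of those lowered in horns 11 and 10, and of both kinds 14 and 4. The meaning of the prefixes is not given in the sources used here. All 80 lay on 36 of the 40 plates, with at most 6 on 1 plate, and 3 pairs lay in neighbouring wells. Row A of the plates held 17 of them (21.2%), against 12.8% of the complete clones.

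Close to the limit of 0.8, the smaller gap was 0.802 in OtP010-H05, 0.804 in OtL012-E09 and 0.807 in OtP002-A05. Just outside were OtP006-E09 and OtP017-A12 at 0.796 and OtP014-H11 at 0.795. Near the limit on the horns, OtP005-E04 at 0.774 and OtP019-E06 at 0.766 were inside. OtP013-D01 at 0.807 and OtL016-G03 at 0.960 were outside, and OtP013-D01, with a smaller gap of 3.97, would otherwise have been among the widest. When 1 letter was left out at a time, 34 of the 80 clones met the rule in all 5 cases, 19 in 4, 17 in 3, 8 in 2 and 2 in 1. Without letter D the lowered class grew from 21 to 35 clones, without letter B it shrank to 13, and without B the class of both kinds went from 18 to 11. With every array centred on its median, 69 clones remained, all of them among the 80.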

How the data were processed

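For 15 two-colour arrays, the authors' deposited values, 1 for each clone on each array, were read here as log2 ratios, already normalized. The authors used limma, per the submitters' processing notes; not given in the sources used here are its version, the background correction, the normalization and the filter behind empty cells. Same-layout arrays of a tissue correlated at 0.60 to 0.72 and opposite-layout arrays at 0.25 to 0.50, so no array was turned. A clone was tested if it had 3 or more arrays with a value in each tissue and values in both layouts (3777 of 3840). It was fitted with limma 3.58.1 in R 4.3.3 (lmFit, eBayes), with 3 tissue coefficients and a dye layout term, and Benjamini-Hochberg adjustment over all clones. Fitted differences are plain means of same-letter differences in complete clones and so deviate from the layout-balanced gaps. In OtP017-E09, head horn minus legs was -0.75 fitted and -1.04 balanced. With plain means in the rule, 4 of the 80 clones dropped out and 7 others came in. P-values measure the spread between arrays of the pooled samples. Without scanner signals, depth could not be assessed.

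Same-letter arrays of different tissues deviated together (15 pairs, correlations 0.34 to 0.48 within tissue and layout). Letters were therefore taken as pairs, on evidence from the data, since the labels tie animals together only within an array, and results with the letter as a replicate block are given beside the others. Named clones are the 8 of each class with the largest smaller gap and the 3 with the largest layout term. Also named are the 3 with the most and the 3 with the least variable gap, and those nearest the limits. Other clones of the set are marked as named after their values were seen. The members and lists were chosen with earlier results of these data known. Gene and marker lists could not be applied without gene names. The alternatives tried were array centring, other tissue means, limits and class limits, single layouts, left-out letters, replicate blocks, no layout term and clones with empty values. The fits were tried on simulated data with noise drawn independently for each array. That trial cannot show how they behave where same-letter arrays deviate together, as they do here. Figures were drawn with matplotlib 3.10.9.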

Additional observations from a re-analysis of the deposited data

Results flagged for a closer look

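Among 5 arrays of a tissue, 11 of 124 tests found an array beyond Dixon's limit. Chance gives about 1 in 20, a rate that does not apply to clones chosen on these same values, as most of those tested were. Leg array D stood apart in OtP007-F07 at 5.92 and leg array A in OtP003-A06 at 3.25. In head horn, letter D stood apart in OtP019-E06 at 0.78, and letter B in OtP016-B03 at -2.05 and in OtL012-E09 at 0.66. In thoracic horn, letter C stood apart in OtP005-E04 at -4.23 and letter A in OtL016-G03, outside the set, at 1.84. Letter D had far more empty values than the other letters, 295 (head horn), 321 (thoracic horn) and 329 (legs), and its leg array had the highest median, 0.15.

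Legs were positive and both horns negative on every array in OtP003-H08 (gap 1.75), OtP004-A10 (1.47) and OtP014-G05 (0.87). This difference was not tested, since the rule used it.

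Clones with an empty value were outside the choice, and 7 of them met the other conditions on the arrays they had. The widest gap among them was that of OtP016-F01, at 2.0 with 13 values, followed by OtP020-G05 at 1.65 and OtP019-D01 at 1.64. OtP002-C12, OtP013-H05, OtP010-F08 and OtP013-G07 had gaps of 1.57, 1.11, 0.98 and 0.89. By class, 5 of the 7 would be raised in legs.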

How the results depend on the processing

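The number of clones in the set ran from 65 to 95 on leaving out a letter. With the size limit at 1.0 it was 44, with 8 lowered in horns and 8 of both kinds, and at 0.7 the class raised in legs held 64. On A, C and E alone 33 clones were of both kinds, and with a class limit of 0.8 only 1 was. On leaving out a letter the classes held 35 to 46 (raised), 13 to 35 (lowered) and 11 to 24 (both).

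Head horn against legs was called in 244 clones, 39 of them in the set. The counts were 736 and 62 with the letter as a random replicate block, 814 and 64 as a fixed replicate block, 16 and 5 on A, C and E, and 1 and 0 on B and D (limma). Without the layout term 104 clones were called. Leaving out a letter gave 67 to 117 clones and 19 to 26 of the set. Thoracic horn against legs was called in 415 clones and 46 of the set. The random replicate block gave 948 clones and the fixed replicate block 984. Without the layout term the counts were 216 and 30, on A, C and E 25 and 5, on B and D 0 and 0, and on leaving out a letter 161 to 247 and 27 to 30. On B and D, 154 and 149 clones had legs higher at an unadjusted p under 0.05 (limma).

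Legs against abdomen was called in 1506 clones, in 987 on A, C and E, and in 741 on B and D, there with 28 of the set. Head horn gave 1401, 919 and 797, with 16 of the set on B and D. Thoracic horn gave 1291, 709 and 500, and of the set 31, 16 and 11. With the fixed replicate block it gave 1719 clones and 48 of the set. Leaving out a letter gave 1185 to 1397, 1121 to 1356 and 999 to 1195 clones, and 39 to 50, 21 to 31 and 22 to 34 of the set. The layout term was called in 854 clones and 10 of the set, in 201 and 1 with the random replicate block, and in 479 to 891 and 6 to 19 on leaving out a letter. The letter test gave 1665 clones, and 897 within layouts.

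Of 936 alternative values of the 39 named clones, 688 kept their direction and call, 47 gained a call, 199 lost it and 2 turned sign, both on letters A, C and E alone: OtP019-B02, thoracic horn minus legs, at 0.10 (adjusted p = 0.956, limma) and OtP017-E09, head horn minus legs, at 0.41 (adjusted p = 0.653, limma). Smaller fits hold fewer arrays, and other causes were not tested.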
